A study of Mus musculus with 50 samples.

Results

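The circadian clock genes described here are 10 transcripts chosen by their gene symbols, namely Clock, Npas2, Per1, Per2, Per3, Cry1, Cry2, Nr1d1, Nr1d2 and Dbp. All 10 of 10 were found in both deposited count tables, among 24552 genes. They were measured by RNA-seq in the nucleus accumbens (NAc) of male C57BL/6 mice (C57BL/6J in the study's methods) carrying RiboTag (RT), an Rpl22 ribosomal protein that gains an HA tag only in cells with Cre recombinase. Immunoprecipitation (IP) of the tag recovers ribosome-bound mRNA of medium spiny neurons (MSNs) that express the dopamine receptor D1 (RT; D1-Cre) or D2 (RT; D2-Cre), and the input is the remaining homogenate of the whole tissue. Mice of 8 to 12 weeks were unstressed controls (Con) or went through chronic social defeat stress (CSDS), 10 min a day by the labels and a shorter bout by the study's methods, for up to 10 days with a CD1 aggressor, and were sorted 24 h later by social interaction into resilient (Res) and susceptible (Sus) groups. There were 28 IPs, with 4 D1 Con, 4 D1 Res, 5 D1 Sus, 5 D2 Con, 5 D2 Res and 5 D2 Sus libraries, and 18 inputs, 3 for each of the same 6 groups. A further 4 D1 IPs came from unstressed RT; Sirt1-floxed; D1-Cre males, labelled Sirt1-KO, and all 50 libraries carried RT. Each library pooled 2 mice, Cre was driven by the D1 or D2 receptor gene in 1 BAC transgenic line per cell type, and the age of the Sirt1-floxed mice is not given in the sources used here.

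The molecular clock is a feedback loop of transcription that runs over about a day in most cells. CLOCK, or its paralog NPAS2, pairs with BMAL1 (encoded by Arntl) and binds E-box sequences to switch on the Per and Cry genes, whose proteins return to the nucleus and repress that pair. The same activators drive Nr1d1 and Nr1d2, which encode the nuclear receptors REV-ERB alpha and beta that repress Arntl, and Dbp, which encodes a transcription factor of D-box sequences and is among the most strongly cycling outputs of the clock. In striatum NPAS2 is abundant, and clock genes there have been studied for reward and mood behavior. Tissue was taken in the earlier part of the light phase, the hour of each pool is not given in the sources used here, and no library samples the night, so every value below is a level in that window and not a rhythm.

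All 10 are protein-coding genes, and on GRCm38 (mm10) the activators lie at Clock (chr5:76209868-76304792, minus strand) and Npas2 (chr1:39193731-39363236, plus strand). The Period genes are Per1 (chr11:69095217-69109960, plus strand), Per2 (chr1:91415982-91459324, minus strand) and Per3 (chr4:151003652-151044665, minus strand), and the Cryptochromes are Cry1 (chr10:85131700-85185064, minus strand) and Cry2 (chr2:92403646-92434043, minus strand). The outputs are Nr1d1 (chr11:98767932-98775333, minus strand), Nr1d2 (chr14:18204054-18239127, minus strand) and Dbp (chr7:45705088-45710203, plus strand).

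To show the sequences through which these genes are linked, the 250 bases before the transcription start were read from RefSeq (GRCm38.p6), which listed promoters for 9 of the 10 genes and none for Per2. Of those 9, 2 held the E-box CACGTG, and 4 held CACGTG or its variant CACGTT. Both strands were searched, and no match described here overlapped another. CACGTG was found in 6.02% of 32851 promoters of the same length and CACGTT in 3.85%. Such shares count single promoters, whereas a clock gene was counted if any of its promoters held the motif. Clock had 3 promoters and Per1 2, so the counts and shares are not on the same footing. The share with either form was not counted over all promoters. Per3 held the D-box TTATGTAA at 2 places, a motif found in 0.819% of promoters. The cyclic AMP element TGACGTCA was in none of the 9 and in 1.55% of all promoters. The promoters with these matches that carry the loops are given here 5′ to 3′ on the gene's strand, with E-box letters (CACGTG, or CACGTT read on either strand) and D-box letters in capitals. Positions are counted from the transcription start. The first Per1 promoter (chr11:69098699-69098948, plus strand), printed here, holds its E-box at -166. The second (chr11:69099902-69100151, plus strand) holds no E-box or variant. The Cry1 promoter (chr10:85185055-85185304, minus strand) holds CACGTG at -60 and the variant at -79. The Nr1d1 promoter (chr11:98775378-98775627, minus strand) holds the variant at -28, and the Per3 promoter (chr4:151044666-151044915, minus strand) holds D-boxes at -205 and -158.
Per1: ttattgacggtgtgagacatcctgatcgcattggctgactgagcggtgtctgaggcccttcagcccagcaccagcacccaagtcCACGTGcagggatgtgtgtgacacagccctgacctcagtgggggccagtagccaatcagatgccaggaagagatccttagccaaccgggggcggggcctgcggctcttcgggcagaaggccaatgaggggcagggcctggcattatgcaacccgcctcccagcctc
Cry1: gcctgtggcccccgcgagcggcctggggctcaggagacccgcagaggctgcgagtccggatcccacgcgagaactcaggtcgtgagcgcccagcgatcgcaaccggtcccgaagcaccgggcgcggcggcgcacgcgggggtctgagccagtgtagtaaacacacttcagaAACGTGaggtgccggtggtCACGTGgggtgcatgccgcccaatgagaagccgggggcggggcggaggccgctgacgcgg
Nr1d1: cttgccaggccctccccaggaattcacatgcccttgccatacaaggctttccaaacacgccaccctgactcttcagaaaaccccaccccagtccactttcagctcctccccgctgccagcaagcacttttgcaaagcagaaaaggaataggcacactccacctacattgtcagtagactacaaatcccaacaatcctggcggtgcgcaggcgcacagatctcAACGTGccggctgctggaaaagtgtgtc
Per3: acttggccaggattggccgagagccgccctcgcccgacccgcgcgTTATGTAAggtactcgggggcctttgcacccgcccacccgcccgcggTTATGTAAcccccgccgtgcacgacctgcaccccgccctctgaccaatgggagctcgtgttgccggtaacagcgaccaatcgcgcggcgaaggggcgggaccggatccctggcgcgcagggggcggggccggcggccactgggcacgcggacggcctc

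Counts assigned to genes ranged from 21591075 to 31009626 in the IPs and from 18384265 to 28179940 in the inputs, and no clock gene had fewer than 392 counts in any library. Levels are given as CPM, counts per 1000000 assigned to genes, after TMM scaling, a correction for differences in library composition. All 6 D1-MSN markers were higher in D1 than D2 IPs and all 6 D2-MSN markers were lower. However, the D2-MSN markers were also 6 of 6 higher in D1 IPs than in D1 inputs (median log2 fold change 0.66), so that the D1 IPs were not free of D2-MSN transcripts. Of the 6 D1-MSN markers 2 were higher and 4 lower in D2 IPs than in D2 inputs (median -0.31). Their sum was 408 to 658 CPM in D2 IPs, 487 to 620 CPM in D2 inputs and 1130 to 1583 CPM in D1 IPs, so that D2 IPs held them too. Summed astrocyte markers were 331 to 555 CPM in D1 IPs, 262 to 525 CPM in D2 IPs and 3495 to 4245 CPM in the inputs. In such bulk libraries fewer cells of a type and less RNA per cell cannot be told apart.

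The clock genes were all expressed, and spanned about an order of magnitude when compared per kilobase of exon. In D1 IPs the order was Dbp (35.7 ± 3.99 CPM per kb, SD, n = 13), Nr1d1 (31.2 ± 3.48), Cry2 (30.2 ± 0.905), Nr1d2 (22.3 ± 1.68), Npas2 (21.9 ± 1.49), Per1 (19.9 ± 1.31), Cry1 (10.5 ± 1.14), Clock (8.57 ± 0.499), Per2 (7.81 ± 0.648) and Per3 (3.91 ± 0.289). The ranges over libraries of neighbours in this order overlapped, except between Cry2 and Nr1d2, between Per1 and Cry1, and between Per2 and Per3. D2 IPs had the same 3 genes at the top and Per3 at the bottom (4.85 ± 0.467 CPM per kb, n = 15), with Npas2 (26.3 ± 2.61) ahead of Nr1d2 (23.7 ± 2.47) and Per2 (9.58 ± 0.570) ahead of Clock (9.02 ± 0.535), both within overlapping ranges. In inputs Nr1d2 (21.9 ± 1.49 CPM per kb, n = 18) stood above Cry2 (17.8 ± 0.969), and Cry1 (6.85 ± 0.635) and Per3 (6.20 ± 0.520) closed the order. Exon lengths are the union of all annotated exons, so that a gene with long alternative ends, such as Clock, is understated on this scale.

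**Figure D1:**
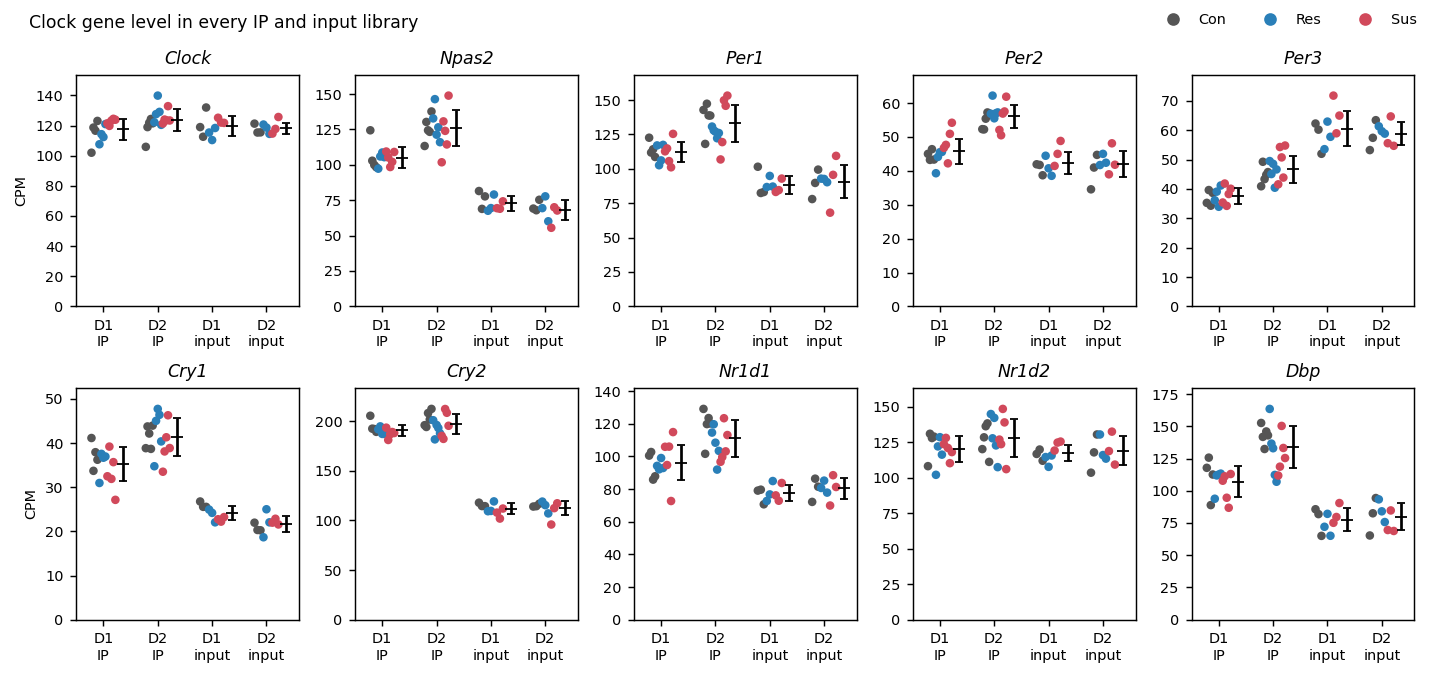
CPM (y axis, from 0) of each clock gene in every D1 IP, D2 IP, D1 input and D2 input library; points are libraries colored by stress group, and the bar beside each column is the mean and SD. D2 IPs lie above D1 IPs for Per2, Per3, Npas2 and Dbp with partly overlapping points, and Per3 is the one gene whose inputs (52.0 to 71.8 CPM) lie above nearly all IPs.

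Paralogs shifted against each other between IP and input. Npas2 and Clock encode alternative partners of BMAL1, and the ratio of Npas2 to Clock per kilobase was 2.58 ± 0.308 in D1 IPs (range 2.29 to 3.49, n = 13) and 2.93 ± 0.311 in D2 IPs (range 2.40 to 3.46, n = 15). In inputs it was 1.75 ± 0.126 for the D1 line and 1.65 ± 0.160 for the D2 line (n = 9 each), with all inputs below all IPs. In CPM, without division by exon length, the same ratio was 0.899 ± 0.108 in D1 IPs, 1.02 ± 0.109 in D2 IPs, 0.611 ± 0.0439 in D1 inputs and 0.576 ± 0.0559 in D2 inputs, so that which of the pair is higher depends on the exon length used, while the step from input to IP does not. The ratio of Per3 to Per2 moved oppositely, at 0.502 ± 0.0457 in D1 IPs and 0.508 ± 0.0569 in D2 IPs against 0.873 ± 0.0951 and 0.854 ± 0.0447 in the inputs per kilobase, again without overlap. In CPM it was 0.824 ± 0.0749 and 0.833 ± 0.0933 in the IPs and 1.43 ± 0.156 and 1.40 ± 0.0733 in the inputs, so that Per3 exceeded Per2 in the inputs on that scale alone. Cry2 exceeded Cry1 in every library, with ratios per kilobase from 2.13 to 3.67 in the IPs and from 2.31 to 3.37 in the inputs, and these ranges overlapped.

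The IP against its input asks which clock transcripts are over- or under-represented on MSN ribosomes relative to the whole tissue. In this contrast 81.9% of 15404 tested genes passed an adjusted p of 0.05 for D1 and 82.7% for D2 (edgeR quasi-likelihood test with Benjamini-Hochberg adjustment over all tested genes), so that a passing gene is the rule here. Of the 10 clock genes 7 were higher in IP and 1 lower in each line, and their median log2 fold change was 0.33 in D1 and 0.51 in D2, beside -0.04 and -0.08 over all tested genes. Without composition scaling, an alternative chosen after seeing the data, the median of all genes was -0.23 in D1 and -0.21 in D2, and 5 clock genes were higher and 3 lower in D1 against 7 and 1 in D2. Of 24 further clock network genes, 16 were higher and 7 lower in D1 IPs and 14 higher and 6 lower in D2 IPs. The repressors Cry2 and Cry1 and the activator Npas2 were among the most enriched, and Per3, a Period protein whose loss affects the central clock little, was depleted. With genes of at least 50 mean counts Clock was called lower in D1 too (-0.11, adjusted p = 0.0011, edgeR), which gave 6 clock genes higher and 2 lower there.

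Cry2 levels were 181 to 206 CPM in D1 IPs (median 189), 182 to 212 CPM in D2 IPs (median 196) and 95.9 to 119 CPM in the inputs (median 114). No IP overlapped an input, and Cry2 rose by 0.77 ± 0.03 (log2 fold change ± SE) in D1 and 0.81 ± 0.03 in D2, with adjusted p of 4.4e-24 and 3.9e-25. Npas2 was 97.3 to 124 CPM in D1 IPs (median 105), 102 to 149 CPM in D2 IPs (median 124) and 55.5 to 81.5 CPM in the inputs (median 69.4). Here too the IPs were all above the inputs, with log2 fold changes of 0.53 ± 0.06 in D1 and 0.89 ± 0.06 in D2. Cry1, the other Cryptochrome, was 0.55 ± 0.06 higher in D1 IPs and 0.93 ± 0.06 higher in D2 IPs than in inputs on the log2 scale.

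Per3 was 33.9 to 41.8 CPM in D1 IPs (median 38.3), 40.4 to 54.8 CPM in D2 IPs (median 45.7) and 52.0 to 71.8 CPM in the inputs (median 59.3). The D1 IPs did not overlap the inputs, while some D2 IPs did. Per3 changed by -0.69 ± 0.05 in D1 and -0.34 ± 0.05 in D2 on the log2 scale (adjusted p = 1.8e-15 and 1.3e-07 by edgeR). Among the other Period genes, Per1, the one that responds fastest to light and stimuli in the brain's central clock, was higher in IPs by 0.34 in D1 and 0.55 in D2, and Per2 was higher by 0.42 in D2. In D1 Per2 was near its input (0.10 ± 0.05, adjusted p = 0.039). This call was lost with RLE size factors (0.07, adjusted p = 0.13), DESeq2 (0.08, adjusted p = 0.15), genes of at least 50 mean counts (0.02, adjusted p = 0.71) and the pool as a block (0.08, adjusted p = 0.13), and on leaving out any 1 of 7 libraries, namely the IPs D1 Con 3, D1 Res 2, D1 Res 3 and D1 Sus 5 and the inputs D1 Con 3, D1 Res 3 and D1 Sus 1 (0.09 to 0.10, adjusted p from 0.050 to 0.076).

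The outputs of the loop split. Dbp was 0.47 ± 0.07 higher in D1 IPs and 0.75 ± 0.07 in D2 IPs than in inputs, and Nr1d1 0.31 ± 0.06 and 0.47 ± 0.06, on the log2 scale. Nr1d2 did not pass in either line (0.04, 95% confidence interval -0.07 to 0.15 in D1, and 0.11, -0.001 to 0.21 in D2), but in D2 it passed with the pool as a block (0.18, adjusted p = 0.000827, edgeR) and in 17 of 24 omissions of 1 library (0.08 to 0.18). Nor did Clock pass, with -0.03 (-0.10 to 0.04) in D1 and 0.07 (0.001 to 0.13) in D2, although in D2 it passed in 20 of 24 omissions (0.06 to 0.12). The direction of both depended on the scaling. Without composition scaling Clock was -0.22 in D1 (adjusted p = 4.5e-08) and -0.06 in D2, and Nr1d2 was -0.15 in D1 (adjusted p = 0.014) and -0.02 in D2. Among genes of at least 50 mean counts Clock in D2 was -0.01 and Nr1d2 in D1 was -0.04.

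**Figure D2:**
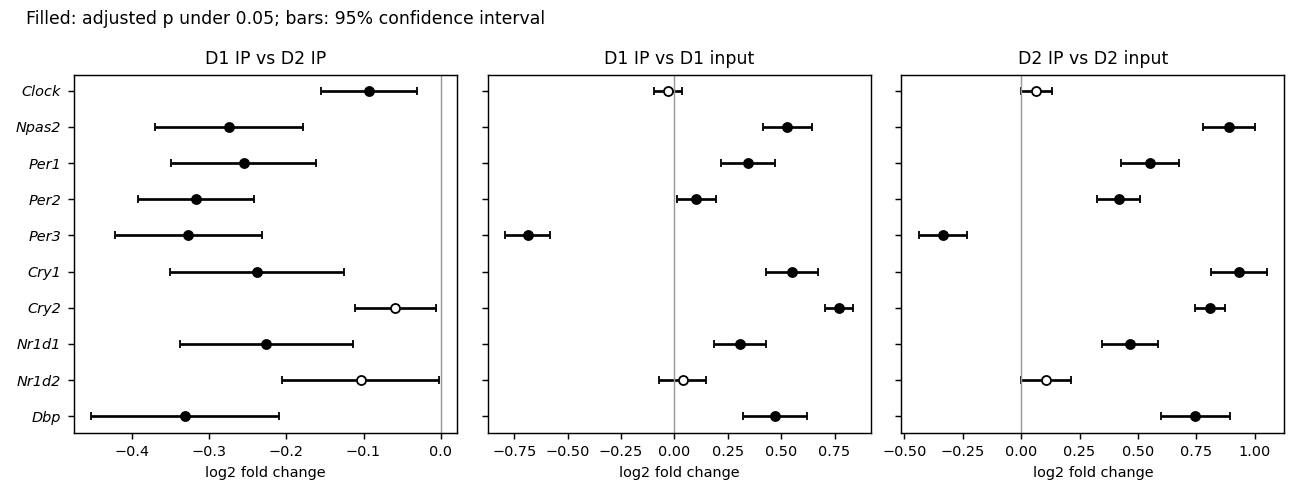
Log2 fold change (x axis) of each clock gene with its 95% confidence interval for D1 IP against D2 IP, D1 IP against D1 input and D2 IP against D2 input; filled points passed an adjusted p of 0.05. All 10 points lie below 0 in the first panel, from -0.33 to -0.06, and Per3 is the single filled point below 0 in the other panels.

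D1 and D2 IPs were then compared with each other, averaging the difference over the 3 stress groups. All 10 clock genes were lower in D1 than in D2 IPs and 8 passed, beside 40.8% of 14224 tested genes called and 21.3% called lower. The median log2 fold change was -0.25 over the clock genes and -0.02 over all tested genes. Differences were modest, and none passed and exceeded 1.5-fold, beside 7.66% of all tested genes. Both activator partners (Npas2 and, slightly, Clock), all 3 Period genes, Cry1, Nr1d1 and Dbp were lower in D1.

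Dbp was 86.8 to 126 CPM in the D1 IPs (median 112) and 107 to 164 CPM in the D2 IPs (median 133). In controls it was 118, 126, 88.9 and 113 CPM in D1 and 153, 142, 132, 146 and 143 CPM in D2, with no overlap, whereas the groups overlapped after stress. The difference over all groups was -0.33 ± 0.06 on the log2 scale (adjusted p = 4.9e-05, edgeR), a change of -20.5%.

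Per2, a repressor in the loop, was 39.3 to 54.2 CPM in D1 IPs (median 45.5) and 50.5 to 62.2 CPM in D2 IPs (median 56.9). Its controls did not overlap, at 45.0, 43.2, 46.4 and 43.3 CPM in D1 and 52.3, 52.2, 55.4, 57.2 and 56.9 CPM in D2, nor did its resilient groups, with at most 45.6 CPM in D1 and at least 55.5 CPM in D2. Per2 had the smallest p of the 10 genes, with -0.32 ± 0.04 (adjusted p = 5.0e-08). Per3, which was depleted in the IPs, was nevertheless also lower in D1 than in D2 IPs, by -0.33 ± 0.05 (adjusted p = 1.9e-06).

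Npas2 differed by -0.27 ± 0.05 (adjusted p = 2.7e-05), Per1 by -0.26 ± 0.05 (5.2e-05), Cry1 by -0.24 ± 0.06 (0.00096) and Nr1d1 by -0.23 ± 0.05 (0.0014). The Clock difference was small (-0.09 ± 0.03, adjusted p = 0.016). Cry2 (-0.06, 95% confidence interval -0.11 to -0.01, adjusted p = 0.066) and Nr1d2 (-0.10, -0.21 to -0.002, adjusted p = 0.097) did not pass. The same comparison within each stress group, in separate libraries, gave 6 of 10 genes lower in Con (14% of all genes called, 6.26% lower), 5 in Res (17.5%, 7.85% lower) and 6 in Sus (17.6%, 8.07% lower), and none higher. These counts rested in part on single libraries. Without D1 Con replicate 3 only Per2 passed in Con, and without D1 Con replicate 4 there were 3. In Res there were 3 without D1 Res replicate 1 or D2 Res replicate 3 and 2 without D1 Res replicate 3, and in Sus there were 3 without D1 Sus replicate 3 and 2 in a fit of the compared libraries alone. With all libraries Npas2, Per2 and Per3 passed in all 3, Per1 and Dbp in Con and Sus, Cry1 in Res and Sus, Nr1d1 in Con and Clock in Res.

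The inputs of the same lines did not show this difference. No clock gene passed between D1 and D2 inputs, beside 0.0199% of 15063 genes, and their log2 fold changes ran from -0.05 to 0.16. Cry1, the 1 of 10 with an unadjusted p under 0.05 (5.19% of all genes), was higher in D1 inputs (0.16 ± 0.05, adjusted p = 0.81, edgeR), opposite to its sign in the IPs. The IP-to-input log2 fold change differed between lines for 5 genes beside 25.5% of all genes, being less far above 0 in D1 for Npas2, Per2, Cry1 and Dbp and further below 0 in D1 for Per3, and 7 genes passed with RLE size factors, 8 without composition scaling and 4 to 7 on leaving out 1 library; that test shares the IPs with the comparison above.

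Levels of cell markers moved with the D1 to D2 difference, and their part in it was not tested beyond the following values. The 4 markers shared by both MSN types were 4 of 4 lower in D1 IPs (median log2 fold change -0.35), with summed levels of 3051 to 4712 CPM in D1 and 4285 to 5648 CPM in D2. Astrocyte markers were 6 of 6 higher in D1 (median 0.43). Markers of cholinergic interneurons, which also express D2 receptors, were 4 of 4 lower in D1, summing to 5.06 to 23.2 CPM against 59.1 to 125 CPM in D2, 4 of 6 microglial and 2 of 5 endothelial markers were lower, and 4 of 6 oligodendrocyte markers were higher. With the mean level of the MSN markers as a covariate, chosen after seeing the data, which differs between the lines itself, no clock gene passed and 223 genes did in all, against 5805 without it, and the clock genes then ranged from -0.19 (Per3) to 0.09 (Npas2). With the astrocyte markers as a covariate, chosen likewise, 6 clock genes passed, beside 37.1% of all genes.

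Other genes of the clock followed the same direction in part. Of the 24 network genes 10 were lower and 4 higher in D1 IPs, beside 40.8% of all tested genes called and 21.3% called lower. Their median was -0.05, beside -0.02 over all tested genes, so that the list as a whole hardly shifted. Arntl, which encodes BMAL1, was lower (-0.19 ± 0.04, adjusted p = 0.00050), as were the D-box factors Hlf (-0.22) and Tef (-0.12) and the E-box repressor Bhlhe41 (-0.35). Among the higher genes were Rorb (1.45), which encodes a nuclear receptor that competes with the REV-ERBs, the AMPK subunit Prkaa2 (0.32) and Nfil3 (0.26), a D-box repressor.

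Social defeat was the study's main question, and no clock gene passed an adjusted p of 0.05 in any stress comparison. In D1 IPs the counts were 0 of 10 for Sus against Con (0% of all genes called), Res against Con (0.00703%) and Sus against Res (0%), and in D2 IPs 0 of 10 in all 3 (0% each). Since almost nothing passed genome-wide, genes with an unadjusted p under 0.05 are also counted. They were 0, 0 and 1 of 10 in D1 (5.34%, 2.11% and 4.23% of all genes) and 0, 1 and 0 of 10 in D2 (3.68%, 3.02% and 1.66%), in the same order. With DESeq2, 0 clock genes were called in each of these comparisons too.

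The D1 gene was Per2, a Period gene for which mutant mice have altered reward and stress responses. It was 45.0, 43.2, 46.4 and 43.3 CPM in D1 Con, 39.3, 44.1, 45.5 and 45.6 CPM in D1 Res, and 46.8, 47.7, 42.2, 50.9 and 54.2 CPM in D1 Sus. All susceptible libraries but 1 lay above every resilient one. Sus exceeded Res by 0.14 ± 0.06 on the log2 scale (95% confidence interval 0.01 to 0.28, adjusted p = 0.999, edgeR), and its difference between D1 and D2 was 0.19 ± 0.09 (0.01 to 0.37, adjusted p = 1.00). In D2 the same contrast was -0.05 ± 0.06. The D2 gene was Clock, with 106, 119, 122, 124 and 122 CPM in D2 Con and 122, 128, 140, 129 and 121 CPM in D2 Res. These groups overlapped, and Res exceeded Con by 0.11 ± 0.05 (0.005 to 0.21, adjusted p = 1.00), or by 0.07 without D2 Con replicate 1.

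The other members gave intervals on either side of 0. For Sus against Con the 10 log2 fold changes ran from -0.17 (Cry1) to 0.12 (Per2) in D1 and from -0.16 (Dbp) to 0.13 (Per3) in D2, and the widest 95% confidence limits over the 10 genes were -0.36 and 0.26 in D1 and -0.36 and 0.29 in D2. Dbp, the steepest output, had -0.12 (-0.33 to 0.10) in D1 and -0.16 (-0.36 to 0.04) in D2. In the inputs, fitted with line as a covariate, 0 of 10 passed for Sus against Con, Res against Con and Sus against Res (0% of all genes each), and 0 of 10 had an unadjusted p under 0.05 (4.51%, 3.25% and 5.47% of all genes).

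**Figure D3:**
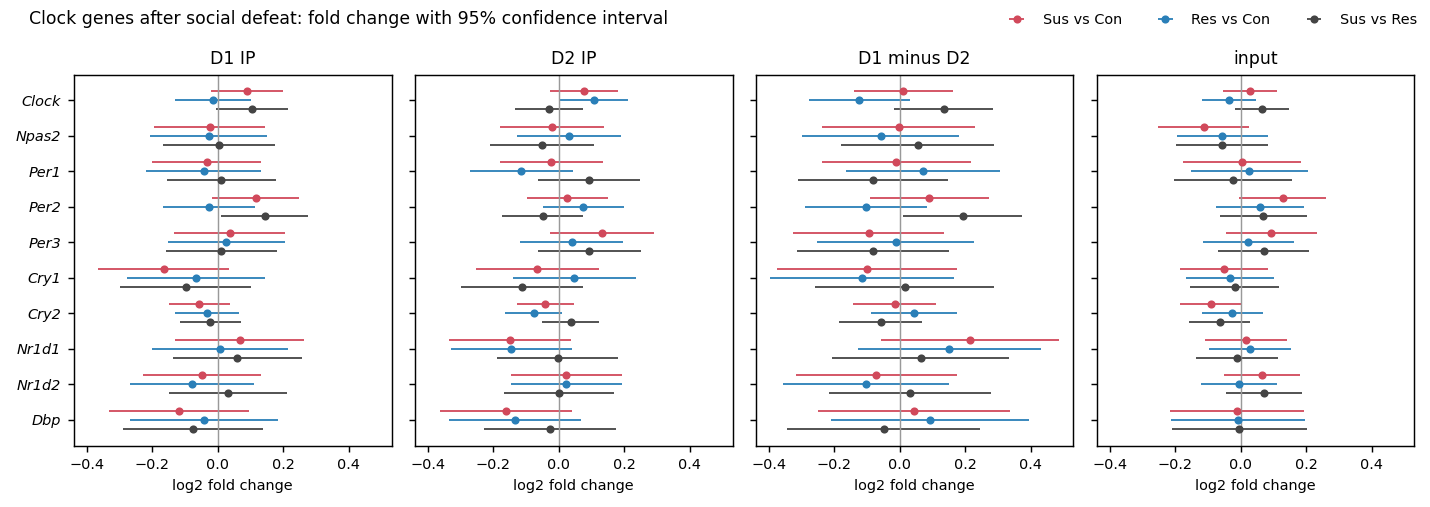
Log2 fold change (x axis) with 95% confidence interval of each clock gene for Sus against Con, Res against Con and Sus against Res in D1 IPs, D2 IPs, the difference between D1 and D2, and the inputs. No comparison passed an adjusted p of 0.05, and the D1 IP values for Sus against Con lie between -0.17 and 0.12.

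No stress contrast differed between D1 and D2 for any clock gene at an adjusted p of 0.05 (0% of all genes called in each of the 3 interactions). At an unadjusted p under 0.05 the counts were 0 of 10 for Sus against Con (1.82% of all genes), 0 of 10 for Res against Con (2.36%) and 1 of 10, Per2, for Sus against Res (2.03%). In the Sus against Con contrast of either line 0% of all genes passed, so that no list could hold a call. Of the 24 other clock network genes 1 in D1 and 0 in D2 had an unadjusted p under 0.05, beside 5.34% and 3.68% of all genes. Recent activity and glucocorticoid action are known to drive Per1. The lists that mark them, 11 immediate early genes and 10 glucocorticoid-responsive genes, had 0 calls in D1 and in D2. For the reason given, these counts say nothing about activity or glucocorticoid action.

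The libraries labelled Sirt1-KO ask whether loss of Sirt1 in D1 cells moves the clock, since SIRT1, a deacetylase that uses NAD, is known to act on BMAL1 and PER2. Sirt1 itself was 15.2, 16.2, 13.2 and 10.2 CPM in these libraries and 13.1, 16.6, 14.8 and 14.4 CPM in D1 Con. The groups overlapped and the difference was -0.10 (adjusted p = 0.77), so that counts over the whole gene did not separate the genotypes; counts over the deleted part alone were not analysed here. The 4 libraries were deposited later than the controls they are set against, and batch and genotype cannot be told apart. In this contrast 1.66% of 13626 genes passed and 0 of 10 clock genes did.

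Dbp was 78.7, 76.1, 85.6 and 101 CPM in the libraries labelled Sirt1-KO and 111, 119, 84.2 and 107 CPM in D1 Con. With the label 2 libraries lay below every control, and the groups overlapped. The log2 fold change was -0.31 ± 0.11 (adjusted p = 0.18, edgeR), and without the library labelled Sirt1-KO replicate 5 it was -0.40 and passed (adjusted p = 0.032), while 1020 genes passed in all. With the replicate number as a block Dbp passed (-0.32, adjusted p = 0.0094, edgeR), where 1618 genes did. D1 Con replicate 2 and Sirt1-KO replicate 5 have no partner of the same number, so that this fit rests on the other 3 pairs. It thus leaves replicate 5 out again and is not separate from the omission above. Per3 was 32.9, 30.5, 28.5 and 31.3 CPM against 33.3, 37.5, 32.5 and 36.7 CPM, overlapping at 1 library, with -0.19 ± 0.07 (adjusted p = 0.21). The counts at an unadjusted p under 0.05 were thus 2 of 10 clock genes, beside 17.3% of all genes.

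The others ran from -0.16 (Cry1) to 0.16 (Clock). The mRNAs of the SIRT1 targets named above were close to the controls. Per2 had 0.00 (95% confidence interval -0.18 to 0.18) and Arntl 0.07 (-0.11 to 0.26). These are mRNA levels, and the PER2 and BMAL1 proteins, on which SIRT1 acts, were not measured. Summed markers also differed between these groups, with MSN markers at 2619 to 3720 CPM with the label and 3437 to 4457 CPM in D1 Con, D1-MSN markers at 919.5 to 1148 against 1224 to 1497 CPM, D2-MSN markers at 1677 to 2633 against 2311 to 3350 CPM and astrocyte markers at 456 to 572 against 313 to 446 CPM. The astrocyte sum was carried by Slc1a2, a glutamate transporter gene (0.44 on the log2 scale, adjusted p = 0.061), while the other 5 markers were below 0 and the median was -0.41. By the test 2 of 6 D1-MSN markers passed, both lower, and none of the 4 MSN, 6 D2-MSN or 6 astrocyte markers did. The 3 cholinergic markers tested summed to a median of 2.95 CPM with the label and 5.78 CPM in D1 Con, without overlap, with a median log2 fold change of -1.07 and 1 of them called lower, and the 6 oligodendrocyte markers had a median of -0.36 with none called. The part of these differences in the clock gene values was not tested. Of the 24 clock network genes 0 passed, and Bhlhe41, which like Dbp is switched on through E-boxes, had -0.35 (adjusted p = 0.11).

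**Figure D4:**
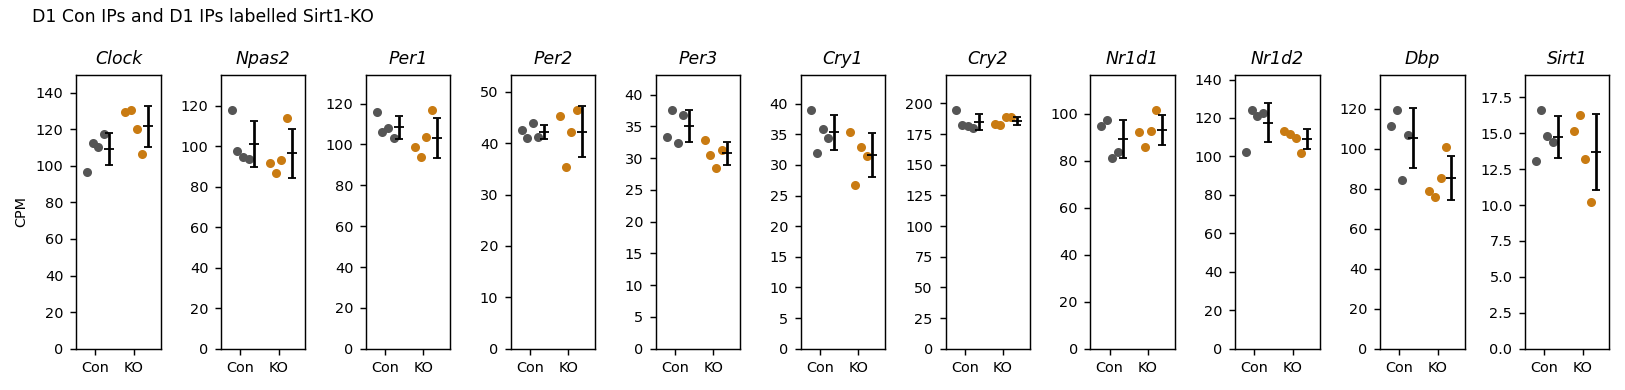
CPM (y axis, from 0) of the 10 clock genes and Sirt1 in 4 D1 Con IPs and 4 D1 IPs labelled Sirt1-KO; points are libraries and bars the mean and SD. Dbp is 85.3 ± 11.2 CPM with the label and 106 ± 15.03 CPM in Con, and Sirt1 overlaps between the groups.

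The remaining spread between libraries of 1 group was then described for genes that vary together. Deviations from the group mean (log2 CPM) were therefore correlated across the 28 IPs and, separately, the 18 inputs, as a description without a test, since libraries share scaling, depth and purity. Some E-box targets varied together, with Pearson's r of 0.63 between Nr1d1 and Dbp in IPs and 0.54 in inputs, 0.47 and 0.72 between Nr1d2 and Dbp, and 0.60 and 0.62 between Per1 and Nr1d1. Others did so less in the IPs, with 0.16 and 0.46 between Nr1d1 and Nr1d2, -0.08 and 0.18 between Per1 and Nr1d2, and 0.16 and 0.77 between Per2 and Dbp. Arntl, which REV-ERBs repress, went the other way, with -0.41 and -0.43 against Dbp and -0.45 and -0.55 against Nr1d2, and less so against Nr1d1 (-0.31 and -0.15). Cry1 was not tied to Dbp (-0.08 and -0.10). The pairs named here are a selection, and others were as large in inputs. Examples are Clock and Dbp (-0.06 in IPs and -0.56 in inputs) and Npas2 and Cry2 (0.15 and 0.80). The spread of r over all pairs of genes was not computed, so that how far these values stand out is not known. A regression of every gene on Dbp in the IPs gave 0 genes with an adjusted p under 0.05 (0% of all genes); Bhlhe41 had the smallest p of all genes (slope 0.64 ± 0.12, adjusted p = 0.11), and Nr1d1 (slope 0.58), Ciart (0.73), Hlf (0.42) and Tef (0.34), all clock genes, did not pass either.

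**Figure D5:**
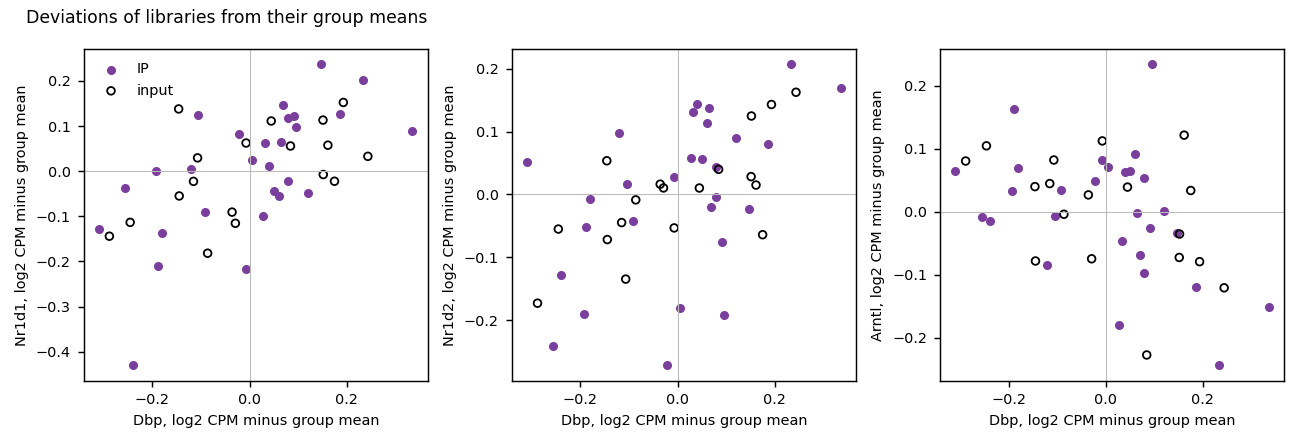
Deviation of each library from its group mean (log2 CPM) of Nr1d1, Nr1d2 and Arntl (y axes) against Dbp (x axis); filled points are 28 IPs and open points 18 inputs. Nr1d1 rises with Dbp (r = 0.63 in IPs) and Arntl falls with it (r = -0.41 in IPs).

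For the 4 clock genes with the closest likeness, the 3 genes outside the list with the most similar deviations in IPs were Tmem56, Mtpn and Golph3 for Nr1d2 (r from 0.85 to 0.86, but -0.32 to 0.22 in inputs), Fig4, Drd2 and Iffo1 for Npas2 (0.82 to 0.84, and 0.38 to 0.80 in inputs), Creg2, Ptpn4 and Psd3 for Clock (0.77 to 0.79, and 0.72 to 0.83 in inputs), and Mxi1, Rab15 and 1700037H04Rik for Dbp (0.76 to 0.78, and 0.21 to 0.58 in inputs). The genes most like Clock in IPs were also like it in inputs, and those most like Nr1d2 were not. Drd2, the receptor gene that defines D2-MSNs, was thus among the genes nearest to Npas2 after group means were removed (r = 0.83 in IPs and 0.38 in inputs). Ciart, a repressor of the clock, was nearest to Nr1d1 (0.81 in IPs and 0.65 in inputs), a pair named after its values were seen.

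IP and input libraries that share line, stress group and number are taken to come from the same pool of mice. Over 18 such pairs the median r of deviations was 0.19 over the 10 genes, from -0.28 (Per2) to 0.72 (Npas2), beside 0.08 over all 15404 genes. Without the 2 pools whose input lay farthest from each gene's median these were 0.0056 and 0.06. For Npas2 0.565% of genes had an r as high as its 0.72 over all 18 pairs (Spearman's rho 0.64). Without those 2 pools its r was 0.59. For Per1 r was 0.56, and then 0.0067. For Dbp it was 0.10.

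Overlapping genes limit some values, since the strand setting of the counting is not given in the sources used here. Exons of Dbp share 18.01% of their bases with Sphk2 on the opposite strand, those of Nr1d1 8.55% with Thra, and those of Cry2 4.67% with D930015M05Rik. Sphk2 was higher (0.12) and Thra near even (0.02) in D1 against D2 IPs, while Dbp and Nr1d1 were lower.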

How the data were processed

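RNA from RiboTag IPs and inputs was sequenced after poly-A selection with a stranded kit. Per the labels and the study's methods, the authors used cutadapt for trimming, STAR for alignment (mm10) and HTSeq for counting. The files deposited hold raw counts per gene, and the counter used for the Sirt1-KO libraries is not given in the sources used here. The 5 entries naming no gene (18.02% to 40.0% of a library's counts) were left out, as were 2 columns that matched no sample. The 4 D1 Con libraries are identical in both tables, and no replicate pair was a duplicate (76 pairs checked). Libraries were sequenced in several sets, and the set of each library is not given in the sources used here.

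The clock genes and lists were chosen with earlier results of these data known. Counts were scaled by TMM, filtered with filterByExpr (minimum count 10, total 15) and fitted in edgeR 4.0.16 (R 4.3.3) with quasi-likelihood F tests, 1 group mean per group, for IPs, inputs (stress plus line), both together, and Sirt1-KO with D1 Con. The Benjamini-Hochberg adjustment covered all tested genes, and a call is an adjusted p under 0.05; the tests measure spread between pools. The tests were checked on simulated data: for D1 Sus against Con, 92% of 100 genes changed by 0.5 on the log2 scale were recovered among 14224. A further 100 genes were changed by 1.0 in the same data, and 6.80% of the calls were false. The recovery where few genes change, or of changes as small as those of the clock genes, was not simulated. Alternatives were RLE size factors, 2 other filters, DESeq2 1.42.0, a fold over 1.5, unadjusted p, a replicate block and leaving out each library. Same-numbered IPs of different groups had a mean r of 0.07 (lowest -0.18), against -0.02 for other numbers. In inputs it was -0.0096 against 0.0046. Numbers were not used to pair groups in the main fits, and whether they mark a batch was not tested. IP and input of a number are taken as 1 pool, because the input is the supernatant left from it. Their mean r of 0.05 (lowest -0.11, against -0.03 for other numbers) is no larger than that of the IPs above. Named genes were the members, the clock network list and, for at most 4 members, the 3 genes with the most similar deviations. Positions are GENCODE M21 on GRCm38.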

Additional observations from a re-analysis of the deposited data

Results flagged for a closer look

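In 5 of 70 combinations of a clock gene with a group of 4 or 5 libraries, 1 library stood apart from the rest of its group by Dixon's test, which chance does in about 1 in 20. The highest was set apart for Clock in D2 Sus (133 CPM) and for Per2 in D2 Res (62.2 CPM). The lowest was set apart for Cry1 in D1 Res (30.95 CPM), for Dbp in D1 Res (93.8 CPM) and for Nr1d2 in D1 Con (108 CPM). The Cry1 and Dbp values are from the same library, D1 Res replicate 1, which was the lowest of its group in 6 of the 10 genes.

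The IP-to-input difference was not the same in both lines for 5 clock genes, beside 25.5% of 15404 genes, by the interaction term of the edgeR fit over all 46 libraries. This test shares the IPs with the comparison of D1 and D2 IPs. The difference between lines, D1 minus D2 on the log2 scale, was -0.36 for Npas2 (adjusted p = 0.00050), -0.31 for Per2 (adjusted p = 0.00025), -0.35 for Per3 (adjusted p = 0.00034), -0.38 for Cry1 (adjusted p = 0.00062) and -0.28 for Dbp (adjusted p = 0.043).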

How the results depend on the processing

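Of 500 values for comparisons under an alternative, 473 were taken as unchanged. For counts of genes this meant within 1.5 times of the main one. For the median r of IP and input pairs it meant a shift smaller than the SD of r over the clock genes. Its fall from 0.19 to 0.0056 without 2 pools was thus taken as unchanged. Many of the 473 are counts for stress comparisons, their interactions and D1 against D2 inputs. There 0 clock genes and at most 3 genes in all passed in the main fit, so a count that stayed at 0 says little. Between D1 and D2 IPs 8 clock genes were called, and 0 passed and exceeded 1.5-fold, beside 7.66% of all genes. With the MSN markers as a covariate, chosen after seeing the data, 0 passed, beside 1.57% of all genes. Npas2 (0.0933) and Dbp (0.0263) turned there. With the astrocyte markers, chosen likewise, Nr1d2 turned (0.000304). Leaving out 1 library gave 8 to 9 (Cry2 or Nr1d2 added). Within stress groups and for the difference between lines, the alternatives were added after seeing the data. Within stress groups 0 passed and exceeded 1.5-fold, beside 4.98% of all genes in Con, 5.52% in Res and 5.55% in Sus. The compared libraries alone gave 2 in Sus. Leaving out 1 library gave 1 to 6 in Con, 2 to 6 in Res and 3 to 6 in Sus. Against inputs, 2 of 10 clock genes in D1 and 4 of 10 in D2 passed and exceeded 1.5-fold, beside 43.1% and 43.6% of all genes. With genes of at least 50 mean counts Clock in D2 (-0.0109) and Nr1d2 in D1 (-0.0450) turned, with no filter Clock in D1 did (0.00628), and leaving out 1 library gave Clock in D1 -0.0338 to 0.00387. The difference between lines, with 5 calls, had 0 over 1.5-fold, beside 1169 of 15404 genes, and 8 without composition scaling, beside 4462. Without composition scaling, chosen after seeing the data, the median of all genes fell from -0.04 to -0.23 in D1 and from -0.08 to -0.21 in D2, calls went from 6038 higher and 6574 lower to 4255 and 8153 in D1 and from 5830 and 6912 to 4697 and 7978 in D2, and Per2 (-0.0906) and Nr1d2 (-0.154) in D1 and Clock (-0.0570) and Nr1d2 (-0.0153) in D2 turned. At an unadjusted p, 1 gene was counted in D1 Sus against Res, D2 Res against Con, their Sus against Res interaction and D1 against D2 inputs, and 2 for Sirt1-KO. Leaving out 1 library gave 0 to 1 for Sirt1-KO and 0 in each stress comparison.

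With the replicate number as a block, 9 genes passed between D1 and D2 IPs, with Nr1d2 added. For Sirt1-KO 1 passed, Dbp (-0.32, adjusted p = 0.0094 by edgeR, with 1618 genes in all). There the block rests on 3 pairs of the same number and leaves out Sirt1-KO replicate 5. The slope on Dbp in IPs, with 0 calls, had 141 under the block. In inputs it had 3 calls, 8 with no filter, 0 under the block and 0 without the 2 libraries farthest in Dbp. The causes were not tested.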
